A study of Homo sapiens with 2 samples.

Results

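Transcript levels of 36 genes of nucleotide excision repair, base excision repair and non-homologous end joining were compared between 2 libraries of A2780, a human cell line derived from an ovarian carcinoma. The genes were taken by symbol, and each of the 36 was found once among the 58735 genes of the deposited table. They comprised 14 genes of nucleotide excision repair, 14 of base excision repair and 8 of end joining. One library came from cells labelled shJAM3, with the genotype given as JAM3 knockdown, and the other from cells labelled shControl, with the genotype given as WT. The design text describes the first as a stable knockdown by siRNA and the second as transfected with an empty vector, whereas the titles carry the prefix sh. No treatment or time point is given, and whether the knockdown line was 1 clone is not stated in the sources used here. RNA was captured by poly(A) tails, and levels are given as FPKM, in which a gene's fragments are divided by its length in kilobases and by the size of the library.

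Nucleotide excision repair removes bulky, helix-distorting lesions such as those made by ultraviolet light and by platinum drugs, by cutting out a short single-stranded patch. Base excision repair removes single damaged bases: a DNA glycosylase releases the base, an endonuclease opens the abasic site, and a polymerase and a ligase close the gap. Non-homologous end joining ligates the ends of double-strand breaks without a template, and the Ku heterodimer binds those ends first. Excision repair has long been studied in ovarian cancer because platinum adducts are among its substrates.

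As there was 1 library per group, there is no replicate check and no p-value, and every difference is a difference between these libraries. The shJAM3 library held 16455079 fragments assigned to genes and the shControl library 15570262. Each ratio of FPKM is given as shJAM3 over shControl with an exact 95% interval that covers counting error only. JAM3, the targeted gene, had 14 fragments in shJAM3 and 18 in shControl, a ratio of 0.716 (0.330 to 1.52), so its reduction could not be checked at this depth. Of the epithelial keratins, KRT18 was at 165.2 FPKM in shJAM3 and 144.8 in shControl and KRT8 at 153.3 FPKM in shJAM3 and 138.6 in shControl, whereas KRT19 had 3 fragments in shJAM3 and 1 in shControl. The folate receptor FOLR1 reached 1012 FPKM in shJAM3 and 845 in shControl. Of the ovarian carcinoma markers, PAX8 was at 0.527 FPKM in shJAM3 and 1.12 in shControl, MUC16 was at 1.07 FPKM in shJAM3 and 0.475 in shControl, and WT1 had no fragment in shJAM3 and 1 in shControl. EPCAM and CDH1 lay below 1 FPKM in both libraries, and the leukocyte marker PTPRC was listed at 0 in both.

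The members differed little, and mostly upwards. Of the 36, 32 averaged 1 FPKM or more across the libraries and are called measured below, and 22 of these were higher in shJAM3 against 10 lower. Among all 10499 protein-coding genes that passed the same filter, 49.4% were higher. On the scale log2(FPKM + 1), where the added 1 shrinks the ratios of weakly expressed genes, 2 measured members were at least 1.5-fold higher in shJAM3, against a background of 5.12% of measured protein-coding genes. They were APEX1 of base excision and ERCC8 of nucleotide excision. None was at least 1.5-fold lower, against a background of 9.30%. At 2-fold no member was called, against backgrounds of 0.391% higher and 1.41% lower. The counting interval lay above 1 for 18 members, against 34.5% of measured genes, and below 1 for 5 members, against 36.8%.

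The 3 pathways were set side by side by their medians on the scale log2(FPKM + 1). The median log2 ratio was 0.34 over 7 measured end-joining genes, 0.18 over 13 base excision genes and 0.09 over 12 nucleotide excision genes. Over all measured protein-coding genes it was -0.01. The end-joining median is the value of DCLRE1C, the measured member of lowest mean level, with 144 fragments in shJAM3 and 84 in shControl. Summed levels were 351 FPKM in shJAM3 and 281 in shControl for base excision, a ratio of 1.25. For end joining they were 251 FPKM in shJAM3 and 196 in shControl, a ratio of 1.28, and for nucleotide excision 189.9 and 184.8 FPKM in the same order, a ratio of 1.03. These sums rested on few genes. APEX1, UNG and PARP1 made up 71.5% of the base excision sum in shJAM3 and 59.8% in shControl, and the other 11 base excision genes together were lower in shJAM3, at 99.9 FPKM against 112.8 in shControl. The most abundant of these 11 were lower: NTHL1 at 24.5 FPKM in shJAM3 and 34.6 in shControl, and MPG at 26.1 and 34.8. OGG1, MUTYH and NEIL1 were also lower, whereas NEIL2, NEIL3, PARP2, XRCC1, POLB and LIG3 were each higher. The Ku genes XRCC5 and XRCC6 made up 68.9% of the end-joining sum in shJAM3 and 60.8% in shControl, and the other 6 end-joining genes together stood at 78.1 FPKM in shJAM3 and 77.0 in shControl.

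**Figure D1:**
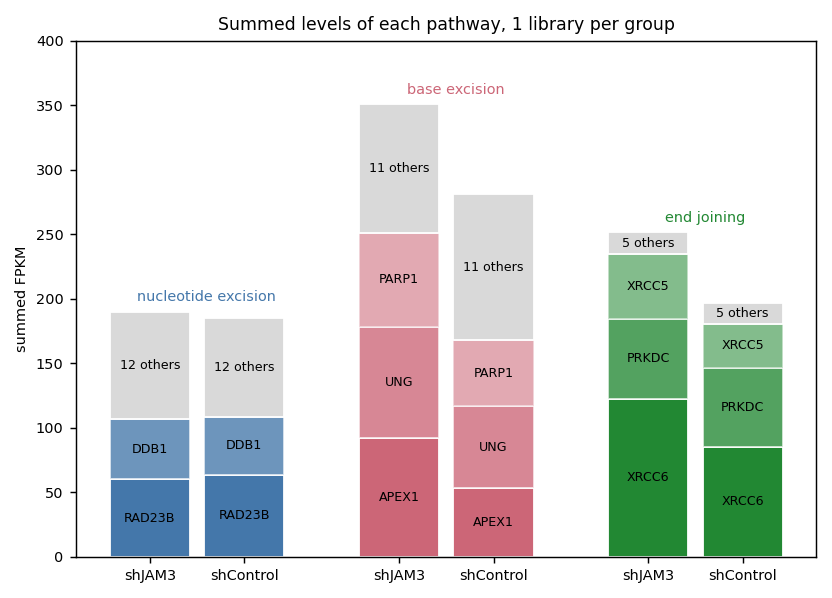
Summed FPKM of the members of each pathway in the shJAM3 library (left bar of each pair) and the shControl library (right bar), stacked by gene, with the remaining members pooled in grey. The base excision bar is 351 FPKM in shJAM3 and 281 in shControl, and the grey part of it is the smaller in shJAM3.

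The promoters of 6 members are shown because the results turn on these genes: APEX1, UNG, XRCC6 and ERCC8 were higher in shJAM3, and XPC and NTHL1 had the lowest log2 ratios of the measured members. Each window runs from 250 bases before to 50 bases after the RefSeq gene start (GRCh38.p14), 5′ to 3′ on the gene's own strand. Capitals mark matches on either strand to 5 motifs: the SP motif GGGCGG, the CCAAT box CCAAT, the ETS motif CCGGAAG, the NRF1 motif (GCGC, any base, TGCGC), and the E2F motifs TTTCCCGC and TTTGGCGC. No base in these windows lay under matches to more than 1 motif.
APEX1 (chr14:20454976-20455275, plus strand): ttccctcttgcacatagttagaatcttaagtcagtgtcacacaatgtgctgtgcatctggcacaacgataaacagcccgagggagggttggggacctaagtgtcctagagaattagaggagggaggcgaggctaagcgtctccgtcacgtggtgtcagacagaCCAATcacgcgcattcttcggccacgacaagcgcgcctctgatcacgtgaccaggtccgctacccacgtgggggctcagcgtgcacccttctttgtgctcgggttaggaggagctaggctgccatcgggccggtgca
UNG (chr12:109097347-109097646, plus strand): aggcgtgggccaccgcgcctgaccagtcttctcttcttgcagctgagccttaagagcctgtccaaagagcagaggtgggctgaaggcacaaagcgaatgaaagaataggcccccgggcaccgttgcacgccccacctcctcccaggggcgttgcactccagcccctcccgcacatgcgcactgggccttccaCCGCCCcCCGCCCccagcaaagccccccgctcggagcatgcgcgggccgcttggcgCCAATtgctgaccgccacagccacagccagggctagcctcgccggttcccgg
XRCC6 (chr22:41621045-41621344, plus strand): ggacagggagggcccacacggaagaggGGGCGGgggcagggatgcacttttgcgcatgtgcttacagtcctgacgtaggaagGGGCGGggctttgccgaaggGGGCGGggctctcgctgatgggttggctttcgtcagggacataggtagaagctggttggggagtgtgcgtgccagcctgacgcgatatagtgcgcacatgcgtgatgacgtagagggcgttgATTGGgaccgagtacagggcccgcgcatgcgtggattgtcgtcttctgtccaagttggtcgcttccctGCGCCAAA
ERCC8 (chr5:60945021-60945320, minus strand): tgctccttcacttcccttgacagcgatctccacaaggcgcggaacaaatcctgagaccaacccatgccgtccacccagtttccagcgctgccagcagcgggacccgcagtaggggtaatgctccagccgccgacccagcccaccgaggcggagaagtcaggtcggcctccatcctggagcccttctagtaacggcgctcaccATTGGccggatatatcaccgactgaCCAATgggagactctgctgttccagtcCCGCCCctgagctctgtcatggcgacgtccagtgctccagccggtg
XPC (chr3:14178552-14178851, minus strand): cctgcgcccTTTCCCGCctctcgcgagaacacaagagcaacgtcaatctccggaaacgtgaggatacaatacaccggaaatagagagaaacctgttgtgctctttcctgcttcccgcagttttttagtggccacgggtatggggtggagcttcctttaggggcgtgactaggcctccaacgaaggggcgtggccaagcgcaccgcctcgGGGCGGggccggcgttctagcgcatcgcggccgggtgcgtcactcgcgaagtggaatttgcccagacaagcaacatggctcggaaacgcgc
NTHL1 (chr16:2047785-2048084, minus strand): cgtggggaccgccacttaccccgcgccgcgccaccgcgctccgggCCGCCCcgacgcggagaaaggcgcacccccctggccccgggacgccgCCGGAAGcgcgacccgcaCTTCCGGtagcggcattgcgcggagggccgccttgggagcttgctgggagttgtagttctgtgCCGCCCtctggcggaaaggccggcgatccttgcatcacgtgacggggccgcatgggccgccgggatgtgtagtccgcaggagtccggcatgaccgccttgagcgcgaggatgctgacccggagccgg
The SP motif stood in the windows of UNG, XRCC6 and ERCC8 and also in those of XPC and NTHL1, and it was found in 24 of the 32 member promoters in the RefSeq table (75.0%), against 44.6% of all 27305 promoters. CCAAT stood in the windows of APEX1, UNG, XRCC6 and ERCC8, in 16 of 32 member promoters (50.0%) and in 35.7% of all promoters. It also stood in the promoters of RAD23B, MUTYH and MPG, which were lower in shJAM3. The same held for ERCC2, OGG1 and TP53BP1, lower with counting intervals that included 1. PARP1 and GTF2H1, which were higher, had no CCAAT match. An ETS motif was found in 9 member promoters (28.1%), NTHL1 among them, and in 10.7% of all. The NRF1 motif was found in 8 member promoters (25.0%), none of them shown here, and in 6.28% of all, and an E2F motif in those of XPC and XRCC6 only, against 2.31% of all. The XPC window held 29 CpG dinucleotides and the NTHL1 window 42, against 19 to 23 in the other 4. Beyond these 6 windows the count did not separate higher from lower members. DDB1 (38) and PARP1 (33) were higher in shJAM3 with many CpG, and MUTYH (12) and OGG1 (22) were lower with fewer. RAD23B (37) and MPG (34) were lower with many. A match in such a window is a description of its letters. The 27305 promoters were not limited to measured protein-coding genes, so they are an unlike background for the members. Whether the members differ from other measured genes in these motifs was not tested.

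Among the damage sensors of nucleotide excision repair, XPC was lower in shJAM3. XPC, which recognises helix distortion across the genome, was at 7.32 FPKM in shJAM3 (586 fragments) and 10.5 in shControl (771 fragments), a ratio of 0.700 (0.628 to 0.780). Other annotated genes share 30.4% of its exon bases, the largest part with AC093495.1, an antisense RNA gene, and without strand information their fragments cannot be told apart. RAD23B, which stabilises XPC, was at 60.0 FPKM in shJAM3 and 63.5 in shControl, a ratio of 0.944 (0.906 to 0.984). RAD23B transcripts were therefore 8.19 times as abundant as those of XPC in shJAM3 and 6.07 times in shControl.

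The subunits of the ultraviolet damage sensor went slightly the other way. DDB2, which binds ultraviolet photoproducts, was at 21.9 FPKM in shJAM3 and 18.5 in shControl, a ratio of 1.18 (1.10 to 1.27). DDB1, its partner and an adaptor of CUL4 ubiquitin ligases, was at 46.7 FPKM in shJAM3 and 44.9 in shControl, a ratio of 1.04 (1.01 to 1.07). Both intervals lay above 1, and neither gene passed 1.5-fold.

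The transcription-coupled branch, which detects RNA polymerase stalled at a lesion, held the largest ratio of the 36 genes, in a gene of low level. ERCC8 encodes the WD-repeat protein CSA (chromosome 5, 60873831 to 60945073, minus strand, GRCh38). It was at 2.48 FPKM in shJAM3 (225 fragments) and 1.09 in shControl (91 fragments), a ratio of 2.28 (1.78 to 2.94). On the scale log2(FPKM + 1) its log2 ratio was 0.74, higher than in 98.1% of measured protein-coding genes. A processed pseudogene on the same strand, GNL3LP1, covers 28.3% of its exon bases. ERCC6, which encodes the remodelling ATPase CSB of the same branch, was at 3.34 FPKM in shJAM3 and 3.01 in shControl, a ratio of 1.11 (1.01 to 1.22).

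TFIIH is the complex that opens the helix around the lesion and also serves transcription initiation. Of its 3 genes among the measured members, 2 were higher in shJAM3 and 1 lower. All 3 were higher after GC centring, which subtracts from each log2 ratio the median of genes with like transcript GC content. GTF2H1, which encodes its p62 subunit, was at 11.2 FPKM in shJAM3 and 7.63 in shControl, a ratio of 1.47 (1.34 to 1.61). The helicase genes stayed closer to 1: ERCC3 (XPB) had a ratio of 1.11 (1.03 to 1.19) and ERCC2 (XPD) a ratio of 0.928 (0.858 to 1.01). After centring, the log2 values on the scale log2(FPKM + 1) were 0.30 for GTF2H1, 0.13 for ERCC3 and 0.13 for ERCC2. ERCC2 stood at 11.6 FPKM in shJAM3 and 12.5 in shControl, and ERCC3 at 11.4 and 10.3 FPKM in the same order, so the 2 helicases had like levels in both libraries. GTF2H4, which encodes the p52 subunit, was listed at 0 in shJAM3 and had 7 fragments (0.194 FPKM) in shControl, where 3 fragments, the limit taken for a count of 0, correspond to 0.0764 FPKM in shJAM3 and 0.0830 in shControl. VARS2 on the same strand shares 79.0% of the GTF2H4 exon bases, so most of the gene has no fragments that can be assigned to it alone.

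The genes of verification and incision differed little. XPA, which checks the lesion, was at 3.17 FPKM in shJAM3 and 3.09 in shControl, a ratio of 1.03 (0.761 to 1.39). ERCC1 and ERCC4 (XPF) form the nuclease that cuts on the 5′ side. ERCC1 was at 6.94 FPKM in shJAM3 and 6.56 in shControl, its interval of 0.943 to 1.19 included 1, and CD3EAP on the opposite strand shares 28.6% of its exon bases. For ERCC4 the levels were 3.37 FPKM in shJAM3 and 2.68 in shControl, a ratio of 1.26 (1.09 to 1.45). ERCC5 (XPG), the nuclease of the 3′ side, was below 1 FPKM, at 0.531 in shJAM3 and 0.434 in shControl. On the same strand, 63.2% of its exon bases are shared with the read-through gene BIVM-ERCC5, itself listed at 0 in both libraries. Most of ERCC5 therefore has no fragments that can be assigned to it alone, and its low value does not show weak expression.

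**Figure D2:**
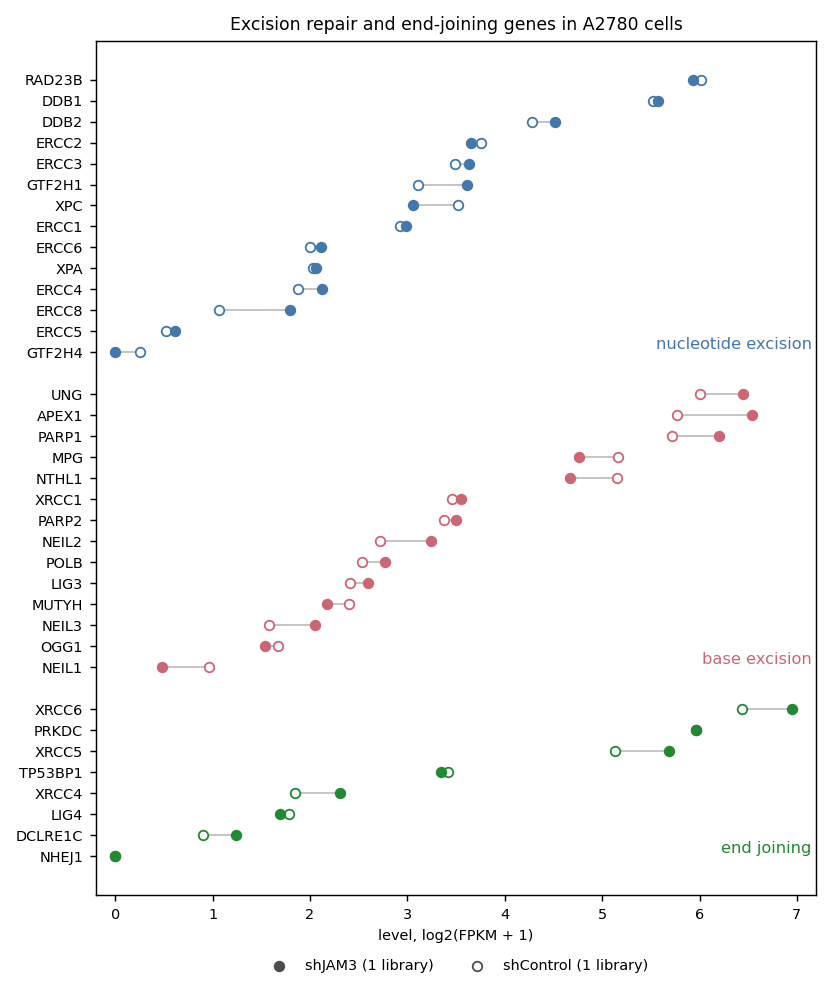
Levels of all 36 members as log2(FPKM + 1), filled points for the shJAM3 library and open points for the shControl library, ordered within each pathway by mean level. Levels span from 0 for NHEJ1 in both libraries to 122.7 FPKM for XRCC6 in shJAM3, and most pairs of points lie close together.

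The DNA glycosylases of base excision repair split. UNG, which removes uracil, was the most abundant of them, at 86.3 FPKM in shJAM3 and 63.2 in shControl, a ratio of 1.37 (1.30 to 1.44). In bulk RNA, more cells with a transcript and more transcript per cell cannot be told apart. NEIL2 and NEIL3, glycosylases for oxidised bases, were also higher. NEIL2 was at 8.48 FPKM in shJAM3 and 5.57 in shControl, a ratio of 1.52 (1.31 to 1.77), and NEIL3 at 3.14 and 1.98 FPKM in the same order, a ratio of 1.59 (1.22 to 2.08).

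Other glycosylases were lower in shJAM3, by differences that mostly did not remain after GC centring. The median log2 ratio of the 7 measured glycosylases on the scale log2(FPKM + 1) was -0.13 before centring and 0.10 after it, when MPG stood at 0.10, MUTYH at -0.00 and NTHL1 at -0.12. NTHL1, which removes oxidised pyrimidines, was at 24.5 FPKM in shJAM3 and 34.6 in shControl, a ratio of 0.709 (0.652 to 0.771). MPG, which removes alkylated purines, was at 26.1 FPKM in shJAM3 and 34.8 in shControl, a ratio of 0.749 (0.678 to 0.827). MUTYH, which removes adenine paired with 8-oxoguanine, was at 3.51 FPKM in shJAM3 and 4.30 in shControl, a ratio of 0.818 (0.681 to 0.981). The third of the NEIL genes went against the other two: NEIL1 had 46 fragments (0.398 FPKM) in shJAM3 and 101 (0.948 FPKM) in shControl, a ratio of 0.419 (0.289 to 0.600), below the filter of 1 FPKM. OGG1, the 8-oxoguanine glycosylase, was at 1.91 FPKM in shJAM3 and 2.18 in shControl, and its interval of 0.741 to 1.04 included 1. The genes of this lower group share exon bases with neighbours on the opposite strand, 25.0% for OGG1 (CAMK1), 27.3% for MPG (NPRL3), 16.5% for NTHL1 (TSC2), 14.1% for MUTYH (TOE1) and 26.4% for NEIL1 (MAN2C1), whereas UNG, NEIL2 and NEIL3 share none.

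The step after base removal held the largest difference among the abundant members. APEX1, the main abasic site endonuclease (chromosome 14, 20455191 to 20457772, plus strand, GRCh38), was at 92.1 FPKM in shJAM3 (2897 fragments) and 53.4 in shControl (1547 fragments), a ratio of 1.72 (1.62 to 1.84). Its log2 ratio of 0.78 on the scale log2(FPKM + 1) was higher than that of 98.5% of measured protein-coding genes. PIP4P1 on the opposite strand shares 2.86% of its exon bases. In order of level, APEX1 held rank 2 of the 36 genes in shJAM3 and rank 5 in shControl.

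PARP1, which senses strand breaks and builds poly(ADP-ribose) chains there, was at 72.6 FPKM in shJAM3 and 51.5 in shControl, a ratio of 1.41 (1.36 to 1.46). Its relative PARP2 was at 10.3 FPKM in shJAM3 and 9.38 in shControl, with an interval of 0.987 to 1.23 that included 1. PARP1 transcripts were 7.02 times as abundant as those of PARP2 in shJAM3 and 5.49 times in shControl. XRCC1, the scaffold that PARP activity recruits, was at 10.7 FPKM in shJAM3 and 9.96 in shControl, and its interval of 0.955 to 1.21 included 1. The genes that fill and seal the gap were slightly higher, POLB (DNA polymerase beta) with a ratio of 1.21 (1.04 to 1.41) and LIG3 (DNA ligase III) with a ratio of 1.17 (1.07 to 1.28). RFFL on the opposite strand shares 29.1% of the LIG3 exon bases. LIG3 stood at 0.471 times the level of its partner XRCC1 in shJAM3 and at 0.433 times in shControl.

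Both Ku genes of end joining were higher in shJAM3, and by like ratios. XRCC6, which encodes Ku70 and was the most abundant member in both libraries, was at 122.7 FPKM in shJAM3 (6727 fragments) and 85.3 in shControl (4308 fragments), a ratio of 1.44 (1.38 to 1.49). XRCC5, which encodes Ku80, was at 50.6 FPKM in shJAM3 (4613 fragments) and 34.1 in shControl (2862 fragments), a ratio of 1.48 (1.42 to 1.56). The level of XRCC6 was 2.42 times that of XRCC5 in shJAM3 and 2.50 times in shControl. The 5 annotated XRCC6 pseudogenes were listed at 0 in both libraries.

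The kinase that Ku recruits did not follow. PRKDC, the catalytic subunit of DNA-dependent protein kinase, was at 61.4 FPKM in both libraries, from 15778 fragments in shJAM3 and 14543 in shControl, and its ratio of 0.999 had an interval of 0.977 to 1.02. DCLRE1C encodes the nuclease Artemis, which this kinase activates. It was at 1.36 FPKM in shJAM3 and 0.864 in shControl, a ratio of 1.58 (1.198 to 2.09).

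The ligation genes of end joining differed from one another. XRCC4, the partner of ligase IV, was at 3.97 FPKM in shJAM3 and 2.60 in shControl, a ratio of 1.52 (1.19 to 1.96). LIG4 itself was at 2.23 FPKM in shJAM3 and 2.43 in shControl, with an interval of 0.732 to 1.14. The level of XRCC4 relative to LIG4 was 1.78 in shJAM3 and 1.07 in shControl. NHEJ1, which encodes the ligation factor XLF, had no fragment in either library, with a limit for a count of 0 of 0.0579 FPKM in shJAM3 and 0.0628 in shControl. AC068946.1 on the same strand shares 65.4% of its exon bases and was at 0.0129 FPKM in shJAM3 and at 0 in shControl, so a count of 0 here does not show that NHEJ1 was not expressed. TP53BP1, which shields ends from resection and so favours end joining, was at 9.14 FPKM in shJAM3 and 9.66 in shControl, with an interval of 0.888 to 1.01, and TUBGCP4 on the opposite strand shares 28.7% of its exon bases.

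**Figure D3:**
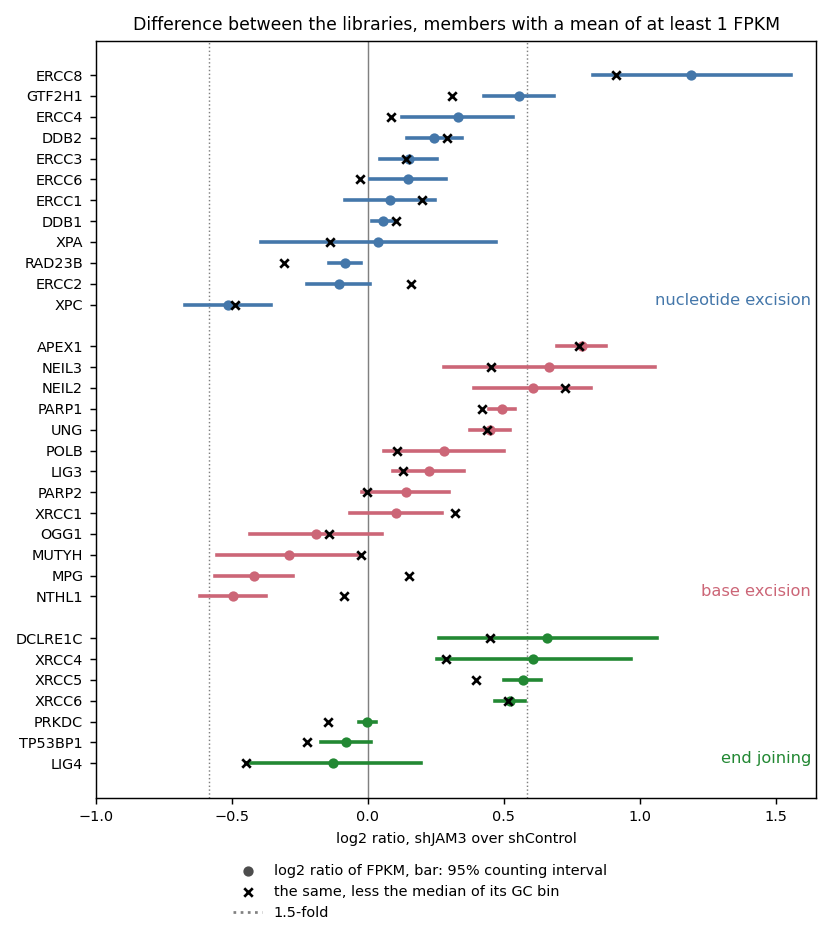
Log2 ratio of FPKM, shJAM3 over shControl, for the 32 measured members (points) with 95% counting intervals (bars), and the same value less the median of genes with like transcript GC content (crosses). Dotted lines mark a 1.5-fold ratio without the added 1. APEX1, UNG and XRCC6 have crosses close to their points, whereas the cross of MPG lies on the other side of 0 from its point.

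The ratios of the excision repair genes were lower for transcripts richer in GC, as in the libraries as a whole. Across 10496 measured protein-coding genes the log2 ratio of FPKM + 1 correlated with GC content with Pearson r = -0.50, and across the 32 measured members with r = -0.49, both across genes that share 2 libraries and are not independent replicates. By pathway, r was -0.69 over 13 base excision genes, -0.56 over 12 nucleotide excision genes and 0.20 over 7 end-joining genes. The end-joining genes span only 36.2% to 50.7% GC, with 6 of the 7 below the median of measured genes. Their r therefore cannot show whether their ratios follow GC content. Of the 17 measured members below the median GC of 49.7%, 13 were higher in shJAM3, and of the 15 at or above it, 9 were higher. NTHL1 and MPG have the transcripts richest in GC of the measured members, at 63.8% and 65.6%, and LIG4 and XRCC4 the poorest, at 36.2% and 36.7%. What part GC content had in each ratio was not tested beyond centring, in which each gene's log2 ratio was taken less the median of measured genes in the same of 20 GC bins.

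After centring, on the scale log2(FPKM + 1), the largest differences among the measured members were those of APEX1 at 0.77, NEIL2 at 0.63, ERCC8 at 0.53, XRCC6 at 0.51 and XPC at -0.44. UNG was at 0.43 after centring, within its counting interval around 0.44 before. PARP1 at 0.42 after centring and XRCC5 at 0.41 stayed above 0 but left the counting intervals around their values before of 0.49 and 0.56. GTF2H1 moved to 0.30 after centring, against 0.50 before. Before centring the values had been -0.48 for NTHL1, -0.40 for MPG and -0.23 for MUTYH. LIG4 moved to -0.34 after centring, against -0.09 before. The pathway medians were 0.17 for end joining, 0.10 for base excision and 0.11 for nucleotide excision, closer to one another than before. At 1.5-fold, 2 members were higher after centring, against a background of 3.48%, and these were APEX1 and NEIL2. None was lower, against 5.26%.

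**Figure D4:**
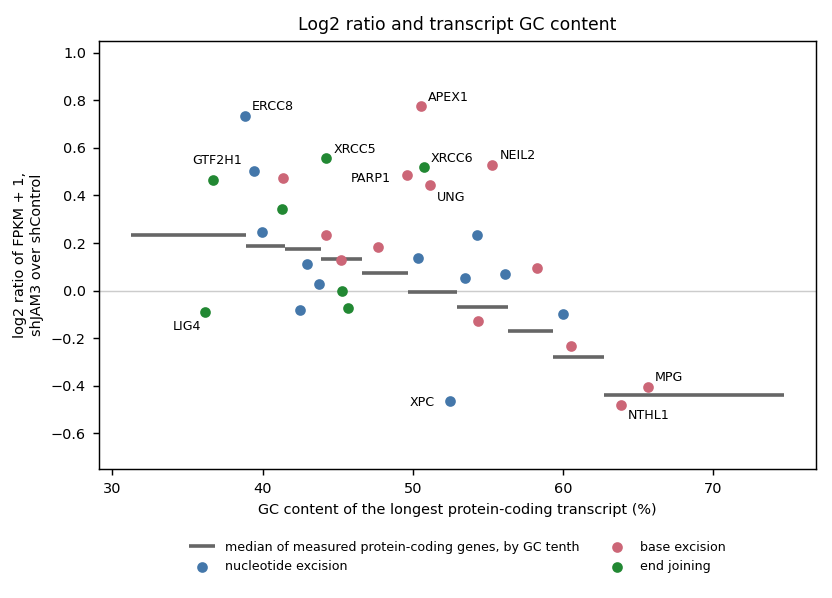
Log2 ratio of FPKM + 1, shJAM3 over shControl, against the GC content of the longest protein-coding transcript, for the 32 measured members (points) and as the median of measured protein-coding genes in 10 equal GC groups (grey lines). The grey medians run from 0.24 in the group poorest in GC to -0.44 in the richest, with MPG and NTHL1 near the line, APEX1, NEIL2 and XRCC6 above it and XPC below it.

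Further genes of the same pathways also had medians above 0, in another order than the members. The counts are on the scale log2(FPKM + 1), and the ratios of single genes are of FPKM without the added 1. Of all measured protein-coding genes, 49.4% were higher in shJAM3 and 5.12% at least 1.5-fold higher. After GC centring, 0 further genes of nucleotide excision, 1 of base excision and 1 of end joining were at least 1.5-fold higher, against 3.48%. Of 16 measured further genes of nucleotide excision repair, 12 were higher in shJAM3, 4 of them at least 1.5-fold, with a median log2 ratio of 0.28 (0.18 after GC centring). CETN2, the centrin subunit of the XPC complex, had a ratio of 1.68 (1.499 to 1.87), opposite in direction to XPC. RPA1 and RPA2, subunits of the single-strand binding protein RPA, both had ratios of 1.53, and CUL4A, the cullin that works with DDB1, a ratio of 1.51 (1.47 to 1.55). Of 15 measured further genes of base excision repair, 11 were higher, 4 at least 1.5-fold, with a median of 0.20 (0.26 after centring). The chromatin protein HMGB1 was at 19.4 FPKM in shJAM3 and 8.96 in shControl, a ratio of 2.16 (2.01 to 2.33). The thymine glycosylases TDG and MBD4 had ratios of 1.93 (1.66 to 2.26) and 1.64 (1.504 to 1.80), and the sliding clamp PCNA a ratio of 1.60 (1.51 to 1.71). Of 13 measured further genes of end joining, 9 were higher, none at least 1.5-fold on that scale, with a median of 0.27 (0.19 after centring). The shieldin genes SHLD3 and SHLD2, which act below TP53BP1, had ratios of 1.84 (1.19 to 2.91) and 1.49 (1.32 to 1.68), the helicase gene WRN a ratio of 1.55 (1.34 to 1.81), and RIF1, which TP53BP1 also recruits, a ratio of 1.45 (1.32 to 1.61).

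The medians of homologous recombination and mismatch repair genes lay above those of each member pathway, both before and after GC centring. Of 13 measured genes of homologous recombination, 10 were higher in shJAM3, 3 of them at least 1.5-fold, with a median of 0.38 (0.29 after centring). Of 8 mismatch repair genes, 7 were higher, 1 of them at least 1.5-fold, with a median of 0.38 (0.21 after centring). The background at least 1.5-fold higher was 5.12%. After centring, 1 homologous recombination gene and 0 mismatch repair genes were at least 1.5-fold higher, against 3.48%. With 1 library per group the difference between pathways was not tested.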

How the data were processed

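RNA was measured by poly(A)-selected sequencing in 1 library per group. The authors deposited FPKM per gene, per the file headers and labels. The submitters' processing notes name, without saying what each was used for, STAR, STAR-Fusion, HISAT2 2.0.5, edgeR 3.22.5, DESeq2 1.20.0, fastp, GATK 4.1.1.0 and featureCounts 1.5.0-p3. No build was named in the sources used here, but all 58735 deposited coordinates and exon-union lengths equalled those of GENCODE 29 (GRCh38). Multiplied by gene length, 100% of the values above 0 came out as whole numbers of a fixed unit in each library (tolerance 0.01 fragments), which gave the fragments behind them. The implied library sizes were 1.01 times the recovered total for shJAM3 and 0.987 times for shControl, so the FPKM carry a scaling between libraries.

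Log2 ratios used log2(FPKM + 1), and genes averaging 1 FPKM or more were taken as measured. Where rows shared a symbol, the one with the highest mean was kept. With 1 library per group no test was possible, so a fold of 1.5 was used. Ratios of FPKM carry Clopper-Pearson 95% intervals for counting error only, which PCR copies make too narrow. GC content was that of a gene's longest protein-coding GENCODE 29 transcript, and shared exon bases came from the same annotation. Promoters came from RefSeq, where 32 of 36 members matched. Calculations used Python 3.11.15 and scipy 1.17.1 and were tested on simulated counts. All members were described, and of each further list up to 4 genes with the largest absolute log2 ratio. The members and lists were chosen with earlier results of these data known.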

Additional observations from a re-analysis of the deposited data

How the results depend on the processing

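The pathway medians stayed above 0 under all alternatives tried. The median of end-joining genes was 0.34 as reported and 0.26 over the 4 that averaged 5 FPKM or more. It was 0.17 with no filter on low values, which adds NHEJ1 at 0, and 0.17 after GC centring, where the cause was not tested. With a pseudocount of 0.1 FPKM it was 0.52. Those of base excision ranged from 0.10 to 0.23 and those of nucleotide excision from 0.06 to 0.12. The number of members at least 1.5-fold higher was 2 as reported (5.12% of measured protein-coding genes), 6 of 32 with a pseudocount of 0.1 FPKM (8.98%), 1 of 21 where genes had to average 5 FPKM (4.89%), and 0 at a fold of 2 (0.391%). The count at least 1.5-fold lower was 0 under every alternative tried, against 5.14% to 12.3% of protein-coding genes at a fold of 1.5. These alternatives did not combine the smaller pseudocount with no filter. At a pseudocount of 0.1 FPKM, NEIL1 and GTF2H4, both below the filter of 1 FPKM, had log2 ratios of -1.07 and -1.55. GC centring changed the sign of 4 of 32 measured members, ERCC6, ERCC2, XPA and MPG, and scaling by total fragments or by the median ratio that of PRKDC alone. The ratio without the added 1, centred on GC, was chosen after seeing the data. It gave a log2 value of 0.91 for ERCC8 and -0.88 for NEIL1. Depth limits the weakly expressed members most: XPA, with 97 fragments in shJAM3 and 87 in shControl, had an interval of 0.761 to 1.39. No paired analysis was possible because each group has 1 library.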

Other observations

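DDB2 and XPC are both known targets of the transcription factor p53, and they differed in opposite directions between the libraries. Of 18 measured genes in a list of 20 other p53 targets, 9 were higher in shJAM3 and 9 lower, with a median log2 ratio of -0.00 on the scale log2(FPKM + 1). Of these, 3 were at least 1.5-fold lower, against a background of 9.30% of measured protein-coding genes, and 0 at least 1.5-fold higher, against 5.12%. The counting interval lay below 1 for 7 of the 18, against 36.8% of measured genes, and above 1 for 4, against 34.5%. The 4 furthest from 0 before GC centring were all lower. GADD45A, a stress-induced growth arrest gene, was at 10.98 FPKM in shJAM3 and 21.2 in shControl, a ratio of 0.518 (0.455 to 0.588). PHLDA3 had a ratio of 0.560 (0.517 to 0.606), BBC3, which encodes the death factor PUMA, a ratio of 0.560 (0.478 to 0.656), and CDKN1A, which encodes the cell cycle inhibitor p21, a ratio of 0.705 (0.661 to 0.751). After GC centring the log2 values on the scale log2(FPKM + 1) were -0.87 for GADD45A, -0.58 for PHLDA3, -0.31 for CDKN1A and -0.22 for BBC3. Other targets then lay further from 0 than CDKN1A, in both directions. PLK3 was at 0.57, SESN2 at 0.41 and FDXR at 0.40, and PPM1D was at -0.43 and MDM2 at -0.42. Of the 18, 8 were higher after centring and 10 lower. Only 1 gene, GADD45A, remained at least 1.5-fold lower, against a background of 5.26%.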
